A study of Mus musculus with 6 samples.

Results

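The 10 genes of NF-κB and tumour necrosis factor (TNF) signalling described here were followed in mouse squamous carcinoma cells that differed in Sox2. They were taken by name and include the ligand gene Tnf, the receptor genes Tnfrsf1a and Tlr2 and the subunit genes Rela, Relb, Nfkb1 and Nfkb2. The others are the inhibitor genes Nfkbia and Tnfaip3, and Nfkbiz, the gene of the nuclear protein IκBζ. They are 10 of the 55385 gene rows of the deposited count table, and all 10 passed the filter on low counts that kept 18504 genes.

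Bulk RNA-seq was made from PDVC57, an established line of transformed mouse keratinocytes that grows as squamous carcinoma. The groups were 3 libraries of Sox2 KO cells, in which the Sox2 gene was knocked out, and 3 libraries of cells with Sox2 overexpression. The series' design text speaks of cells low or high in Sox2 that were recovered from grafted tumours, and asks which mechanisms Sox2 turns on in tumour stem cells to act on neutrophils. Both groups carry a change in Sox2, and no unmodified PDVC57 group was analysed here, so each value below is overexpression set against knockout. Neither the construct and its promoter nor whether each group is 1 clone is given in the sources used here. Nothing in the labels says that the replicates were separate cultures, clones or animals, so p-values measure the spread between these libraries, which may be technical.

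NF-κB is a family of paired transcription factor subunits that inhibitor proteins of the IκB family hold in the cytoplasm. TNF binding its receptor, or a microbial ligand binding a Toll-like receptor, activates a kinase complex that marks IκB for destruction, and the freed subunits enter the nucleus. Among the genes they switch on are those of their own inhibitors, IκBα and A20, which end the response, and in keratinocytes and squamous tumours the pathway is known for cytokine and chemokine output. Messenger RNA levels, measured here, do not report where the subunits are in the cell.

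The members' promoters are shown as background on matches to the NF-κB consensus. Nfkbia and Tlr2, the 2 members that passed the test described below, are given at greater length. The consensus was searched on both strands in the 250 bases upstream of each RefSeq start site (GRCm38.p6, which has the coordinates of mm10). Promoters were found for 7 of the 10 members, all but Nfkb1, Relb and Nfkbiz, and 4 of the 7 held a match: Nfkbia, Tlr2, Tnfaip3 and Nfkb2. Among all 27025 genes with a promoter, 2225 held one (8.23%). The 7 members had 10 promoters, of which 6 held a match. Members were taken as genes of this pathway, so these shares are no test. Capitals mark the match, and each sequence runs 5′ to 3′ on the strand of its gene. For Nfkbia the whole 250 bases are given (chr12:55492648-55492897, minus strand), and for Tlr2 the 91 bases that lie before any annotated exon (chr3:83841768-83841858, minus strand). For Tnfaip3 (chr10:19015411-19015431 and chr10:19015517-19015544, minus strand) and Nfkb2 (chr19:46304689-46304717, plus strand) only the match with its flanks is given. The Nfkb2 stretch lies in an exon of Nfkb2 and of AC114539.1, and Nfkb2 held 3 further matches.
Nfkbia: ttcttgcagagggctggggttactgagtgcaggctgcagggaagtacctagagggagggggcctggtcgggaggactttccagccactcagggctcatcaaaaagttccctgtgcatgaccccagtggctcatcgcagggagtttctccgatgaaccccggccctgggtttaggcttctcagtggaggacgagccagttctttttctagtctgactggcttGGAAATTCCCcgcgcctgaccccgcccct
Tlr2: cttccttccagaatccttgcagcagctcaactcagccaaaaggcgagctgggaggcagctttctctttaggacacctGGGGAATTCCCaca
Tnfaip3, nearer match: atttccatcGGAAATCCCCct
Tnfaip3, farther match: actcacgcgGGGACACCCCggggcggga
Nfkb2: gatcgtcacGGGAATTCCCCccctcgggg
A match describes letters, not a bound site, and the absence of one in Tnf, Rela and Tnfrsf1a says only that these letters are not in this window. Of the 4 genes with a match, Tlr2 rose, Nfkbia fell, and Tnfaip3 and Nfkb2 did not pass (log2 fold changes -0.04 and 0.01). The part of the matches in the results was not tested.

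The libraries held 31247976 to 38543221 counts over mouse genes. Sox2 itself had 49, 34 and 25 counts in knockout replicates 1 to 3 and 2566, 3790 and 4095 counts with overexpression, so its level separated the groups as labelled. Levels are given as CPM, counts scaled to a common library size that the TMM method adjusts for composition. Markers of other cell types differed between the groups. The 10 fibroblast markers summed to between 56390 and 83420 CPM with knockout and to between 256.8 and 412 CPM with overexpression, and all 10 were lower past the threshold. The 14 keratinocyte markers, present in every library, summed to between 5950 and 9261 CPM with knockout and to between 15410 and 19760 CPM with overexpression, and 10 were higher past the threshold. Endothelial markers (8) summed to between 31.86 and 106.3 CPM with knockout and to between 12.89 and 19.69 CPM with overexpression, where Cdh5 and Cldn5 had at most 3 counts. Leukocyte markers (12) summed to between 26.67 and 128.8 CPM with knockout and to between 15.1 and 33.44 CPM with overexpression, so that the groups overlapped. Of these 12 markers, 8 were tested and 5 were lower past the threshold (Ptprc, Itgam, Lyz2, C1qa and Ncr1). The other 3 tested, Csf1r, Cd68 and Ly6g, had higher means with overexpression without passing it, and with keratinocyte scaling their log2 fold changes were -0.51, -0.94 and -0.23. With overexpression Ptprc had at most 20 counts, Adgre1 at most 2 and Cd3e at most 1, while Csf1r had 238 to 529. Exons of Csf1r overlap those of Hmgxb3 on the other strand. In bulk RNA, fewer cells of a type and less RNA per cell cannot be told apart. Nor does it show which cells made a marker, and the labels name every sample as PDVC57 cells. The part of these markers in the results below was not tested.

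**Figure D1:**
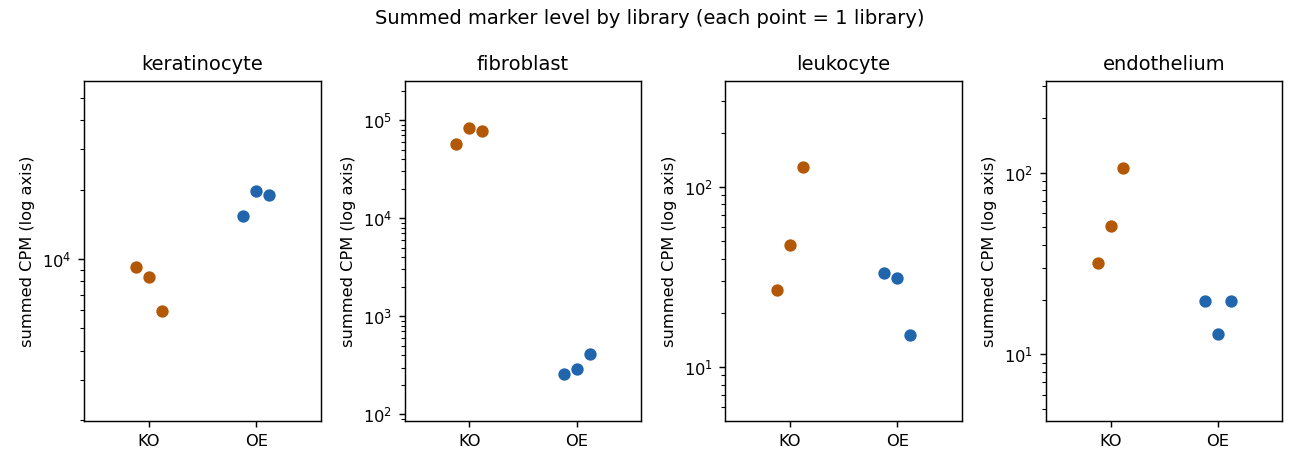
Summed CPM of each marker list (vertical log axes, each with its own range) in the knockout (KO) and overexpression (OE) libraries, 1 point per library. Fibroblast markers reach at least 56390 CPM in each knockout library and at most 412 CPM in each overexpression library, and keratinocyte markers run the other way.

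Most members did not pass the test. In the quasi-likelihood test of edgeR, with p-values adjusted over all tested genes by the Benjamini-Hochberg method, 2 of 10 members passed the threshold of 0.05: Tlr2 rose and Nfkbia fell with overexpression. That is 20% of the members, where 31.6% of all tested genes passed, 13.6% higher and 18% lower. The members' log2 fold changes (overexpression over knockout) had a median of 0.01 and a median size of 0.19, against -0.02 and 0.51 over all tested genes. For 5 of 10 members the groups did not overlap, where 50.9% of all tested genes did not. The count of 2 depends on single libraries, and was 0 without knockout replicate 3 and 1 without knockout replicate 1 or 2 or overexpression replicate 1 or 3. When libraries were scaled to the keratinocyte markers in place of TMM, the median of all tested genes moved from -0.02 to -1.38, all 10 members had a log2 fold change below 0, and 8 were lower and 0 higher past the threshold. Of all 18504 tested genes, 14083 were lower and 292 higher past the threshold under that scaling.

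**Figure D2:**
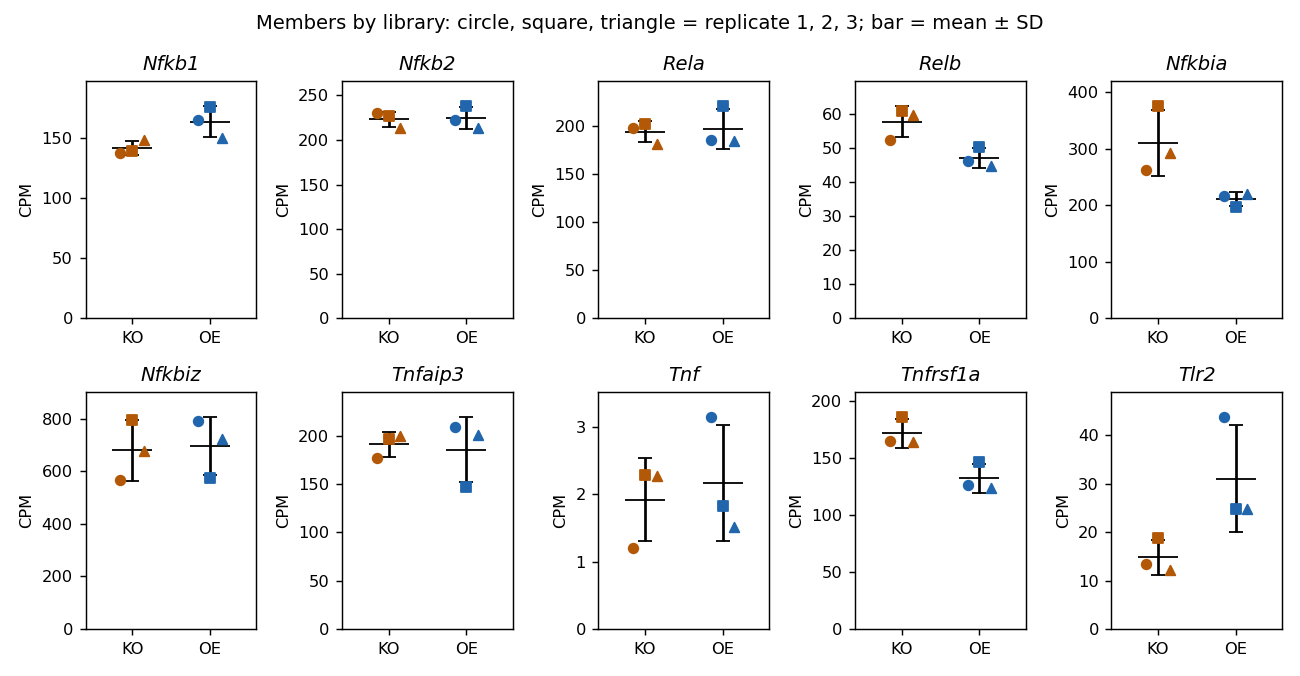
CPM (vertical axes, from 0, each with its own range) of the 10 members in each knockout (KO) and overexpression (OE) library, with the mean and SD of 3 libraries. Points of the groups do not overlap for Tlr2, Nfkbia, Tnfrsf1a, Relb and Nfkb1, and mix for the other 5.

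Tnf, the ligand gene (chromosome 17, 35199381 to 35202007, minus strand, GRCm38), was the lowest of the members. It had 41, 69 and 83 counts (1.20, 2.28 and 2.275 CPM) in knockout replicates 1 to 3 and 103, 54 and 60 counts (3.14, 1.83 and 1.52 CPM) in overexpression replicates 1 to 3. One overexpression library, replicate 1, was the highest and 1 knockout library, replicate 1, the lowest, and the others mixed. The means were 1.92 ± 0.622 CPM with knockout and 2.16 ± 0.863 CPM with overexpression (SD, n = 3 each). The difference of 0.17 on the log2 scale was smaller than its standard error of 0.41 (edgeR, adjusted p = 0.777), with a 95% interval from -0.76 to 1.10, which spans changes in both directions. Its sign turned to -0.07 without knockout replicate 1, to -0.18 without overexpression replicate 1 and to -1.18 with keratinocyte scaling.

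Tlr2 (chromosome 3, 83836272 to 83841767, minus strand) encodes a receptor for bacterial lipoproteins and was the member with the largest change. Its level was 13.4, 18.9 and 12.1 CPM in knockout replicates 1 to 3 and 43.8, 24.7 and 24.7 CPM in overexpression replicates 1 to 3. The groups did not overlap, and overexpression replicate 1 stood well above the rest. Tlr2 rose 2.10-fold, from a mean of 14.8 ± 3.57 CPM to one of 31.1 ± 11.01 CPM (SD, n = 3 each). On the log2 scale the change was 1.07 (standard error 0.28, 95% interval 0.44 to 1.70; edgeR, adjusted p = 0.0183). The adjusted p was 0.0539 without knockout replicate 1 and 0.0575 without knockout replicate 3, and ran from 0.000368 to 0.622 over all alternatives. With keratinocyte scaling the log2 fold change was -0.20 (adjusted p = 0.622), which lay 1.17 above the median of all genes under that scaling. Tlr2 is also a gene of myeloid cells, whose markers did not move together. Ptprc fell (40.1 ± 41.9 CPM with knockout, 0.491 ± 0.0584 CPM with overexpression), as did Lyz2 (4.65 ± 1.88 and 0.509 ± 0.644 CPM). Itgam and C1qa were also lower past the threshold. By contrast, Csf1r, Cd68 and Ly6g had means of 6.42 ± 1.48, 6.13 ± 2.81 and 2.15 ± 0.256 CPM with knockout and of 11.65 ± 5.16, 8.62 ± 2.31 and 4.74 ± 3.55 CPM with overexpression (SD, n = 3 each). Csf1r, whose exons overlap those of Hmgxb3 on the other strand, and Cd68 were highest in overexpression replicate 1 (16.1 and 11.2 CPM), as Tlr2 was. The part of myeloid cells in the level of Tlr2 was not tested.

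Tnfrsf1a (chromosome 6, 125349362 to 125362484, plus strand) encodes the TNF receptor found on most cells. Its level was 165.0, 185.6 and 163.4 CPM in knockout replicates 1 to 3 and 126.1, 146.5 and 123.2 CPM in overexpression replicates 1 to 3. All overexpression libraries lay below all knockout libraries. The means were 171.4 ± 12.4 and 131.9 ± 12.7 CPM (SD, n = 3 each). The log2 fold change of -0.38 (standard error 0.14, 95% interval -0.71 to -0.05) did not pass the threshold (edgeR, adjusted p = 0.0792). It passed without overexpression replicate 2 (adjusted p = 0.0229) and with upper-quartile normalization (0.0349), within a range over the alternatives from 3.71e-05 to 0.252.

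Rela and Nfkb2 did not pass the test, and their libraries mixed. Rela (chromosome 19, 5637483 to 5648130, plus strand), whose protein carries much of the activating function of the classical pathway, had 197.6, 202.0 and 181.4 CPM with knockout and 185.6, 220.1 and 184.3 CPM with overexpression (replicates 1 to 3). Nfkb2 (chromosome 19, 46304320 to 46312385, plus strand), the precursor gene of the alternative pathway, had 229.7, 226.4 and 213.9 CPM with knockout and 222.3, 237.6 and 212.9 CPM with overexpression. The groups overlapped for both genes. The log2 fold change was 0.02 for Rela, with a 95% interval from -0.31 to 0.35, and 0.01 for Nfkb2, with an interval from -0.305 to 0.32 (edgeR, adjusted p = 0.923 and 0.979). Both were negative with upper-quartile (-0.04 and -0.05) and keratinocyte scaling (-1.34 and -1.35), and in 2 of the 6 fits that left out 1 library. The exons of Nfkb2 overlap those of AC114539.1 and Psd on the other strand, and whether counting used strand is not given in the sources used here.

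Nfkb1 and Relb did not pass the threshold, although the groups overlapped for neither. Nfkb1 (chromosome 3, 135584655 to 135691547, minus strand), the precursor gene of the classical pathway, had 137.3, 139.2 and 148.6 CPM with knockout and 165.2, 175.5 and 150.2 CPM with overexpression (replicates 1 to 3). Overexpression replicate 3 and knockout replicate 3 lay close together. Relb (chromosome 7, 19606217 to 19629438, minus strand), whose product partners the processed Nfkb2 protein, had 52.5, 60.9 and 59.75 CPM with knockout and 46.35, 50.5 and 44.8 CPM with overexpression. For Nfkb1 the means were 141.7 ± 6.04 and 163.6 ± 12.7 CPM and the log2 fold change 0.21 (95% interval -0.11 to 0.52; edgeR, adjusted p = 0.284), which was -1.17 with keratinocyte scaling. For Relb the means were 57.7 ± 4.57 and 47.2 ± 2.93 CPM (SD, n = 3 each for both genes) and the log2 fold change -0.29 (95% interval -0.60 to 0.02; adjusted p = 0.145).

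Nfkbia (chromosome 12, 55489410 to 55492647, minus strand), the gene of IκBα, was the member that fell. Its level was 262.2, 375.1 and 293.5 CPM in knockout replicates 1 to 3 and 216.2, 197.6 and 219.9 CPM in overexpression replicates 1 to 3. The overexpression libraries lay close together and all below the knockout libraries, among which replicate 2 stood highest. The mean fell from 310.3 ± 58.3 to 211.2 ± 11.9 CPM (SD, n = 3 each). On the log2 scale the change was -0.55 (standard error 0.17, 95% interval -0.95 to -0.16; edgeR, adjusted p = 0.0390), so that the level was 1.47-fold higher with knockout. The call depended on single libraries. The adjusted p was 0.165 without knockout replicate 2, 0.0785 without knockout replicate 3, and 0.0780, 0.0740 and 0.0969 without overexpression replicate 1, 2 and 3, while the log2 fold change stayed between -0.65 and -0.39. Without the low-count filter the adjusted p was 0.0520, and over all alternatives it ran from 8.35e-06 to 0.165. Fibroblast markers were also high in the knockout libraries and highest in replicate 2 (83420 CPM, against 56390 and 78320 CPM in replicates 1 and 3), and their part in the level of Nfkbia was not tested.

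Nfkbiz and Tnfaip3 showed no difference beyond the spread of the libraries. Nfkbiz (chromosome 16, 55811375 to 55838899, minus strand), the gene of the nuclear protein IκBζ, had 564.9, 795.5 and 675.6 CPM with knockout and 789.7, 573.6 and 721.2 CPM with overexpression (replicates 1 to 3). Tnfaip3 (chromosome 10, 19000910 to 19015657, minus strand), the gene of the ubiquitin-editing enzyme A20, had 176.5, 196.9 and 199.7 CPM with knockout and 208.7, 147.0 and 201.0 CPM with overexpression. Overexpression replicate 2 was the lowest of its group for both genes, and the groups overlapped. The log2 fold change was 0.03 for Nfkbiz (95% interval -0.415 to 0.48) and -0.04 for Tnfaip3 (95% interval -0.43 to 0.35), with adjusted p-values of 0.912 and 0.875 (edgeR). That of Nfkbiz was -0.02 with upper-quartile and -1.32 with keratinocyte scaling, and that of Tnfaip3 was 0.12 without overexpression replicate 2.

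**Figure D3:**
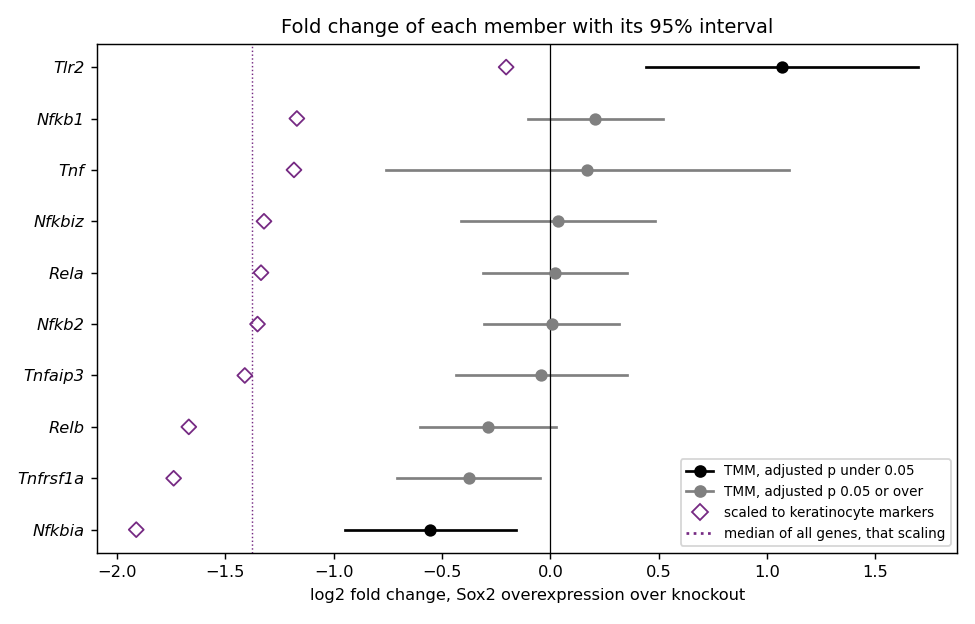
Log2 fold change of each member (horizontal axis, overexpression over knockout) with its 95% interval under TMM (circles, black where the adjusted p is under 0.05) and the value after scaling to keratinocyte markers (diamonds). The interval reaches 0 for 7 of 10 members, and under the keratinocyte scaling all 10 lie below 0, around the median of all genes at -1.38 (dotted line).

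Ratios of genes inside a library do not depend on how libraries are scaled to each other, so 3 were compared. The count of Nfkbia per count of Rela was 1.33, 1.86 and 1.62 in knockout replicates 1 to 3 and 1.17, 0.898 and 1.19 in overexpression replicates 1 to 3. Every overexpression library had fewer counts of this inhibitor for each count of the subunit it binds. The log2 ratio was lower by a difference of -0.56. For Relb to Rela the ratio was 0.266, 0.301 and 0.329 with knockout and 0.250, 0.229 and 0.243 with overexpression, a log2 difference of -0.31. For Nfkb2 to Nfkb1 it was 1.67, 1.63 and 1.44 with knockout and 1.345, 1.35 and 1.42 with overexpression, a log2 difference of -0.20. In all 3 ratios the groups did not overlap, where 50.9% of all single tested genes did not. The share over other gene pairs was not counted. The exact two-sided permutation test gave p = 0.1 for each (0.1 adjusted over the 3 ratios), the smallest p that 3 libraries against 3 can give. Rela and Nfkb2 barely differed (log2 fold changes 0.02 and 0.01). The ratios therefore largely repeat the changes of Nfkbia (-0.55), Relb (-0.29) and Nfkb1 (0.21) and are not separate evidence.

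**Figure D4:**
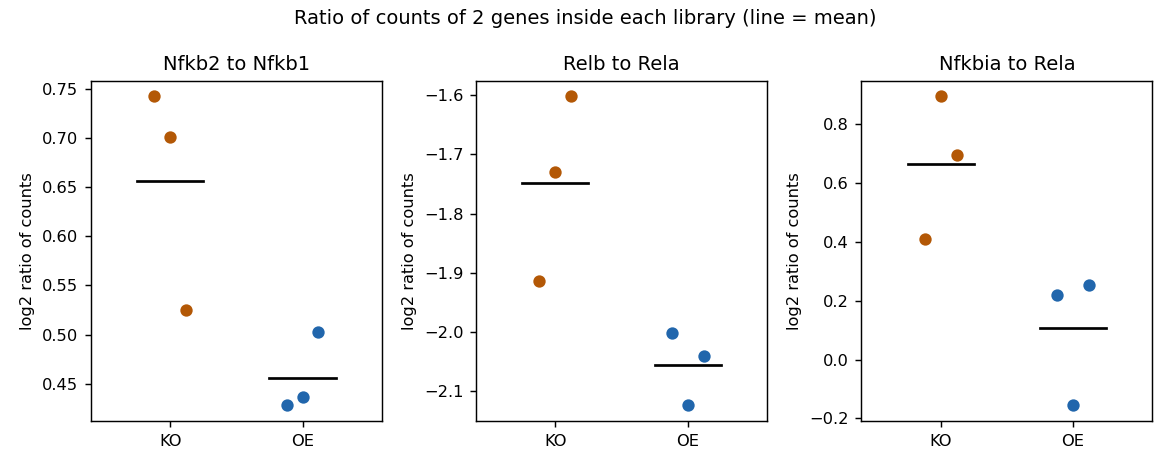
Log2 ratio of the counts of 2 members inside each library (vertical axes, not starting at 0, each with its own range), with the mean of each group as a line. For each ratio all 3 overexpression (OE) libraries lie below all 3 knockout (KO) libraries, by -0.20, -0.31 and -0.56 on average.

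Levels of different genes were compared only per length, as CPM per kilobase of the principal transcript. With knockout, Nfkbia (196.6 ± 36.9) and Nfkbiz (164.9 ± 28.03) stood highest, and their libraries overlapped. Tnfrsf1a followed at 79.5 ± 5.74, then Rela at 71.3 ± 3.99 and Nfkb2 at 71.1 ± 2.65, which overlapped. Nfkbia and Nfkbiz were ahead of the subunits. Tnfaip3 (43.2 ± 2.86), Nfkb1 (34.4 ± 1.47), Relb (26.1 ± 2.07), Tlr2 (4.91 ± 1.18) and Tnf (1.17 ± 0.379) came next, each apart from its neighbours (SD, n = 3 for each value). With overexpression, Nfkbiz (168.9 ± 26.8) was above Nfkbia (133.9 ± 7.57), still overlapping. Tnfrsf1a (61.2 ± 5.89) stood below Rela (72.4 ± 7.48) and Nfkb2 (71.4 ± 3.97), and its libraries overlapped those of Nfkb2. Tnfaip3 (41.96 ± 7.603) and Nfkb1 (39.75 ± 3.09) overlapped as well, and Relb, Tlr2 and Tnf stood lowest at 21.4 ± 1.33, 10.3 ± 3.65 and 1.32 ± 0.526. Dividing by the length of all annotated exons exchanged the order of Nfkb1 and Relb with knockout and of Nfkb2 and Tnfrsf1a with overexpression.

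Other genes of the pathway were taken from 5 lists by role. These lists were chosen with earlier results of these data known, so the shares called below are not independent of the data. The lists hold 99 genes, of which 96 were tested, and 42 passed the edgeR threshold (43.8%, where 31.6% of all tested genes did). There were 11 higher (13.6% of all genes were) and 31 lower (18%), and the median log2 fold change was -0.305. With keratinocyte scaling, where the median of all tested genes was -1.38, 94 of the 96 genes were below 0. Of the 11 higher genes 9 were below 0 and only Il1a was still higher past the threshold. The count of higher genes was 7 without knockout replicate 2 and 6 without knockout replicate 3. Values of single genes below are edgeR adjusted p-values and means ± SD of 3 libraries a group.

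**Figure D5:**
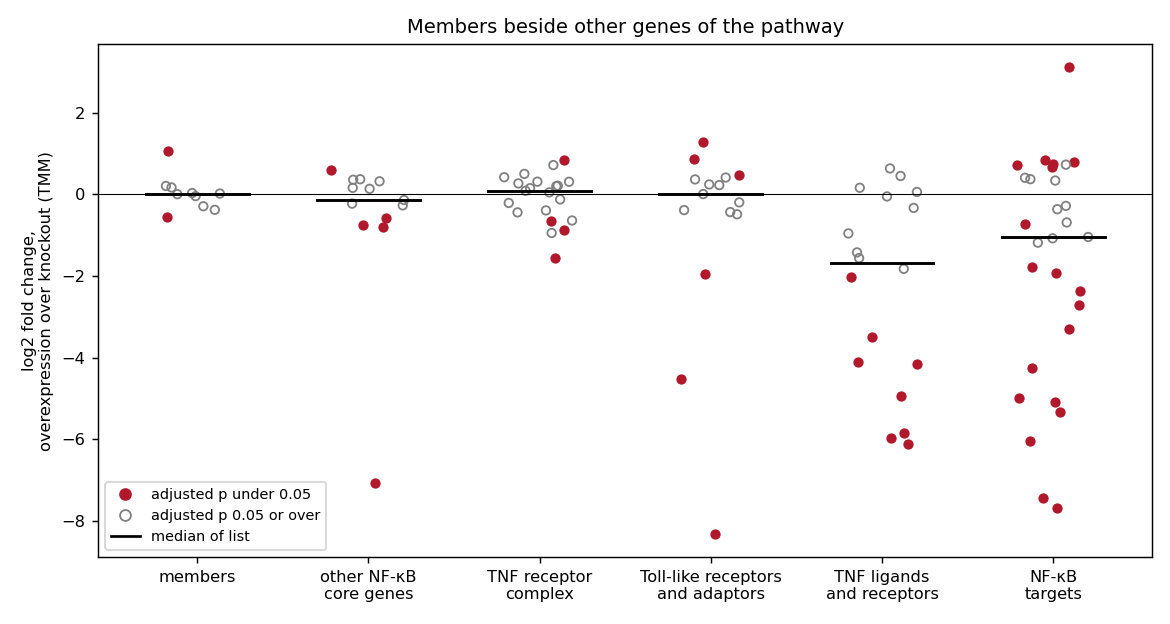
Log2 fold change (vertical axis, overexpression over knockout, TMM) of every tested gene of the members and of 5 lists of pathway genes, filled where the adjusted p is under 0.05, with the list's median as a line. Medians lie near 0 for the members and the first 3 lists and at -1.69 and -1.04 for TNF family genes and NF-κB targets. Under keratinocyte scaling all 6 medians lie below 0, as does the median of all tested genes (-1.38).

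Among 13 other core genes of NF-κB, 1 rose and 4 fell, which is 38.5% called against 31.6% of all tested genes. With keratinocyte scaling 0 were higher and 13 lower, where 14083 of all 18504 tested genes were lower. Map3k14, the kinase that starts the alternative pathway, fell from 51.6 ± 3.31 to 29.7 ± 3.61 CPM, a log2 fold change of -0.80 (adjusted p = 0.00398). Nfkbid, a nuclear IκB gene, had at most 2 counts in an overexpression library. Its level was at least 31.3-fold below the knockout mean of 3.16 CPM, against 3 counts in the overexpression library of least depth. That mean was 1.68 CPM when knockout replicate 3 was left out, which gives a smaller bound. Nfkbie, an IκB gene, fell from 43.9 ± 7.42 to 26.3 ± 4.69 CPM (adjusted p = 0.0184), which became 0.0872 without knockout replicate 2 and 0.0759 without overexpression replicate 3 (5.53e-06 to 0.0872 over the alternatives). Bcl3, another nuclear IκB gene, fell by 0.57 on the log2 scale (adjusted p = 0.0349). Its adjusted p was 0.0760, 0.153 and 0.0526 without knockout replicate 1, 2 and 3, and 0.0644 and 0.136 without overexpression replicate 2 and 3. In the DESeq2 test it was 0.0587. Tab1, an adaptor of the kinase TAK1, rose by 0.60 on the log2 scale (adjusted p = 0.0426), a value that was -0.77 with keratinocyte scaling. Its adjusted p became 0.0823, 0.126 and 0.116 when knockout replicate 1, 2 or 3 was left out. The counts of the list were accordingly unsteady, with 2 lower without knockout replicate 2 or overexpression replicate 3, 0 higher without any 1 of the knockout replicates, and 3 higher without overexpression replicate 2. Exons of Bcl3 overlap those of Gm16175 on the other strand, and those of Map3k14 overlap 1700028N14Rik on the same strand.

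Of 21 genes of the complex that forms on the TNF receptor, 1 rose and 3 fell, which is 19% called against 31.6% of all tested genes. With keratinocyte scaling 0 were higher and 19 lower, where 14083 of all 18504 tested genes were lower. Tnip1, which binds A20, rose from 66.7 ± 6.13 to 120 ± 13.5 CPM, a log2 fold change of 0.85 (adjusted p = 0.00299) that was -0.53 with keratinocyte scaling. Adam17, the protease that sheds TNF from the cell surface, fell from 73.6 ± 11.3 to 40.3 ± 6.65 CPM, a log2 fold change of -0.87 (adjusted p = 0.00681). Its exons overlap those of Iah1 on the other strand. Tnip2, a further A20 partner, fell from 38.6 ± 4.45 to 24.6 ± 2.05 CPM (adjusted p = 0.0135), and the p became 0.0563 or 0.0667 when knockout replicate 2 or 3 was left out. Traf1, an adaptor, fell by 1.57 on the log2 scale (adjusted p = 0.0176), and its p became 0.0513 or 0.0626 when overexpression replicate 1 or 3 was left out. The list had 2 higher genes without overexpression replicate 2. Its median log2 fold change was 0.09.

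Of 15 tested Toll-like receptor and adaptor genes 3 were higher and 3 lower, which is 40% called against 31.6% of all tested genes (Tlr7 and Tlr9 did not pass the filter). With keratinocyte scaling 0 were higher and 12 lower, where 14083 of all 18504 tested genes were lower. Irak3, a brake on Toll-like receptor signalling, had 275, 739 and 1020 counts in knockout replicates 1 to 3 and at most 3 in an overexpression library. That is at least 200-fold below the knockout mean of 20.15 CPM, and a smaller bound holds against knockout replicate 1 (8.06 CPM). The exons of Irak3 overlap those of Gm47009 and Tmbim4 on the other strand. Tlr5, a flagellin receptor, fell from 1.86 ± 1.16 to 0.0749 ± 0.0484 CPM (log2 fold change -4.52, adjusted p = 0.00242), and its log2 fold change was -5.14 without overexpression replicate 3. Irak2, a kinase that carries the signal, rose from 40.96 ± 2.798 to 74.2 ± 16.7 CPM, a log2 fold change of 0.86 (adjusted p = 0.00735) that was -0.46 with keratinocyte scaling. Its exons overlap those of Gm43963 on the other strand. Cd14, a co-receptor of Toll-like receptors, had 13.6, 11.4 and 8.72 CPM with knockout and 38.1, 32.5 and 12.04 CPM with overexpression. It rose by 1.29 on the log2 scale (adjusted p = 0.0345), and by 0.04 with keratinocyte scaling, where it did not pass. Leaving out knockout replicate 2 or 3 gave Cd14 adjusted p-values of 0.0919 and 0.0931, and leaving out overexpression replicate 1 or 2 gave 0.0906 and 0.111. Irak1 (log2 fold change 0.48, adjusted p = 0.0495; -0.87 with keratinocyte scaling) lost its call when knockout replicate 1, 2 or 3 (adjusted p = 0.106, 0.106 and 0.167) or overexpression replicate 3 (0.0830) was left out. It also lost it with upper-quartile scaling (0.0572), without the low-count filter (0.0610) and with robust dispersion (0.05003). Its exons overlap those of Mir5132 and Mir718. Tlr1 (log2 fold change -1.94, adjusted p = 0.0166) had at most 16 counts in a library. It lost its call when knockout replicate 1 (adjusted p = 0.0538) or overexpression replicate 1, 2 or 3 (0.0713, 0.0591 and 0.0981) was left out, in the DESeq2 test (0.119) and without the low-count filter (0.1105). The count of higher genes was 1 without knockout replicate 2 or 3.

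Ligands and receptors of the TNF family other than Tnf and its receptors were lower or not called. Of 18 genes, 8 fell and 0 rose in the edgeR test, which is 44.4% lower against 18% of all tested genes, and 0 higher against 13.6%. The median log2 fold change was -1.69, and with keratinocyte scaling all 18 were lower past the threshold, where 14083 of all 18504 tested genes were. At an unadjusted p under 0.05, 2 were higher, Ltbr and Tnfrsf12a. In the DESeq2 test, without the low-count filter and without overexpression replicate 1, the count of higher genes was 1, which was Tnfrsf12a (adjusted p = 0.0274, 0.0225 and 0.0260). Tnfsf12, the gene of TWEAK, fell from 17.7 ± 4.15 to 0.282 ± 0.146 CPM (log2 fold change -5.97, adjusted p = 1.03e-05), and its exons overlap those of the readthrough gene Tnfsfm13. Tnfsf11, the gene of RANKL, fell from 5.64 ± 2.35 to 0.0738 ± 0.0476 CPM (log2 fold change -6.13, adjusted p = 7.38e-05), with a log2 fold change of -6.75 without overexpression replicate 3. Tnfsf13b, the gene of BAFF, fell from 5.51 ± 2.56 to 0.306 ± 0.113 CPM (log2 fold change -4.16, adjusted p = 0.000397). Leaving out knockout replicate 3 gave a list median of -0.96. The summed fibroblast and endothelial markers were also lower in every overexpression library. Leukocyte marker sums overlapped between the groups and were highest in knockout replicate 3 (128.8 CPM, against 26.67 and 47.85 CPM in replicates 1 and 2). Of 8 tested leukocyte markers 5 were lower past the threshold and 3 were not called. The part of any of these markers in these genes was not tested.

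Genes known as NF-κB targets moved in both directions. Of 29 tested targets 6 were higher and 13 lower (65.5% called, where 31.6% of all tested genes were), with a median log2 fold change of -1.04. Leaving out 1 library gave medians from -1.89 (without overexpression replicate 1) to -0.618 (without knockout replicate 2). With keratinocyte scaling 1 was higher and 22 lower, where 292 of all 18504 tested genes were higher and 14083 lower. Ccl2, a monocyte chemokine, fell from 43.8 ± 20.5 to 0.661 ± 0.104 CPM (log2 fold change -6.03, adjusted p = 9.58e-06). Vcam1, a leukocyte adhesion molecule, fell from 41.4 ± 15.6 to 1.31 ± 0.127 CPM (log2 fold change -4.98, adjusted p = 1.26e-05), and its exons overlap those of Gm43109 on the other strand. Il6, a cytokine, fell from 49.9 ± 30.95 to 0.244 ± 0.111 CPM (log2 fold change -7.69, adjusted p = 2.1e-05), with a knockout mean of 32.3 CPM and a log2 fold change of -7.05 without knockout replicate 2. These 3 genes are also expressed by fibroblasts, and the 10 fibroblast markers fell in the same comparison (median -7.65 on the log2 scale). Which cells made these markers is not known here, and their part was not tested. The 6 higher targets were Il1a, Sdc4, Sqstm1, Ier3, Junb and Bcl2l1, chosen by that count. Il1a, an alarmin of keratinocytes, was 253, 50.1 and 91.0 CPM in overexpression replicates 1 to 3 against 10.2 to 18.0 CPM with knockout. Its log2 fold change of 3.11 was 2.24 without overexpression replicate 1 and 1.82 with keratinocyte scaling, and Gm14023 overlaps its exons from the opposite strand. The other 5 had log2 fold changes between 0.66 (Bcl2l1) and 0.84 (Sdc4), and all 5 were below 0 with keratinocyte scaling. Of these, Bcl2l1 came to an adjusted p of 0.0887 without knockout replicate 2, Ier3 to one of 0.0658 without knockout replicate 3, and Junb to ones of 0.0982 and 0.1085 without knockout replicate 1 and 3 and of 0.0516 and 0.0598 without overexpression replicate 2 and 3.

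For each member, the gene of the 5 lists with the most similar pattern was taken as the 1 with the highest Pearson correlation of log2 CPM over the 6 libraries. The points share the difference between the groups and the depth of each library, so the values only describe these libraries. Nfkbia was most like Cxcl1 (0.969), Tlr2 most like Irak2 (0.945) and Nfkb1 most like Bcl2l1 (0.960). Tnfrsf1a (0.966) and Relb (0.954) were both most like Gadd45b, and Rela (0.953) and Nfkb2 (0.801) both most like Nfkbib. Tnfaip3 was most like Tlr4 (0.951), Tnf most like Lcn2 (0.852) and Nfkbiz most like Ly96 (0.763).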

How the data were processed

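Per the labels' protocols, RNA came from a micro-scale column kit and libraries from a low-input kit. The authors deposited raw counts per gene, whole numbers without normalization, for 6 libraries. The submitters' processing notes name kallisto 0.44.0 and the build mm10 without a role, so the counts may be rounded estimates; the counting program, annotation and strand setting are not given in the sources used here. Left out were 96 rows for spike-ins and constructs (2.23e-05% of the counts or less). Symbols, lengths and positions came from GENCODE M21 (GRCm38), with 55144 IDs matched, and promoters from RefSeq.

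After filterByExpr (at least 10 counts, total at least 15) and TMM, edgeR 4.0.16 in R 4.3.3 tested the groups by quasi-likelihood over all 6 libraries, with no other term. Standard errors are the log2 fold change divided by the square root of F. Alternatives were 3 other scalings, no filter, DESeq2 1.42.0, a block for the replicate number, robust dispersion and each library left out. The edgeR test was also run on simulated counts in which few genes changed, unlike these data, so that run cannot show how the test behaves here. No 2 replicates agreed within counting noise (chi-square per degree of freedom at least 42.5). A count of 3, the limit that a count of 0 allows, is 0.0759 to 0.101 CPM. For Nfkbid and Irak3, with up to 2 and 3 counts in an overexpression library, it is a yardstick and not a limit. Such limits cover counting error alone, as no molecular identifiers are stated. No batch or date is in the labels.

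The members and the lists of pathway and marker genes were chosen with earlier results of these data known. Named are all members, Sox2, the 3 genes of each pathway list with the smallest p-value, genes that a count of 5 or fewer singles out, and for each member the pathway gene most correlated with it. Other genes named were chosen after their values were seen.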

Additional observations from a re-analysis of the deposited data

How the results depend on the processing

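Size factors of DESeq2 (RLE), the DESeq2 test and robust dispersion left each member's direction and side of the threshold as given. Scaling to the keratinocyte markers called 8 members, 0 higher and 8 lower, and 85 pathway genes, 1 higher and 84 lower; over all genes it called 14375, of which 2.03% were higher, against 5848 and 43.1%. It turned the log2 fold changes of Nfkb1 (-1.17), Nfkb2 (-1.35), Rela (-1.34), Nfkbiz (-1.32), Tnf (-1.18) and Tlr2 (-0.205), by its construction, since those markers were higher with overexpression. Upper-quartile scaling gave 2 lower members and turned Nfkb2 (-0.054), Rela (-0.04) and Nfkbiz (-0.021). Without the filter 1 member was called and 0 were lower; the cause was not tested.

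With 1 library left out, 0 to 2 members passed, 0 to 1 higher and 0 to 1 lower, and 6 to 13 pathway genes were higher. Log2 fold changes then ran from -0.019 to 0.06 for Nfkb2, -0.047 to 0.085 for Rela, -0.072 to 0.175 for Nfkbiz, -0.114 to 0.12 for Tnfaip3 and -0.177 to 0.391 for Tnf. Over all genes, the higher count of 2519 was 1446 without knockout replicate 2 and 1610 without knockout replicate 3.

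Same-numbered libraries did not deviate together (correlations 0.051, 0.022 and -0.04). That cannot show whether a shared number marks a shared day, animal or culture. With the replicate block 1 member passed, 0 of them lower (Nfkbia, adjusted p = 0.0611), and 5593 genes were called. Tab1 (adjusted p = 0.0514), Tlr1 (0.0516), Irak1 (0.0644) and Ccl5 (0.0886) lost their calls and Cxcl5 (0.0134) gained one. The within-library ratios were the same (-0.20, -0.307 and -0.559). An exact permutation test that swapped groups only within same-numbered pairs gave p = 0.25 for each ratio. That is the smallest p this exact permutation test can give with 3 pairs, so it cannot show whether blocking weakened the ratios. Depth limits several listed genes, among them Tnf, Tlr1 and Tlr5, which had at most 103 counts in a library. Another is Tnfsf14, 1 of the 8 lower TNF family genes, with 18, 26 and 35 counts in knockout replicates 1 to 3 and at most 1 with overexpression.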
